A study of Mus musculus with 5 samples.

Results

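Expression of 8 genes of cytotoxic lymphocytes was followed through single-cell RNA profiles of the mouse mammary gland. They were the granzymes Gzma, Gzmb, Gzmc and Gzmk, the pore-forming perforin gene Prf1, the granule membrane gene Nkg7, and the intracellular serpins Serpinb9 and Serpinb6b. Each was found by its symbol, and the 8 genes were 8 of 32285 in the deposited count tables, with no symbol listed more than once among them. The study set 3 libraries labelled Frmd3 KO (KO1, KO2 and KO3) against 2 labelled WT (WT1 and WT2), all from mammary gland, and its series text names 5 mice. Its title ties FRMD3, a FERM-domain protein, to tumour suppression, mammary epithelial fate and Notch signalling. The labels give no age, strain, Cre or deleted exon, and do not say whether the knockout is confined to a cell type. The libraries were made with a droplet kit of 10x Genomics that reads 3′ ends, and each captured transcript is counted once by its molecular barcode (UMI).

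Cytotoxic lymphocytes, chiefly natural killer (NK) cells and CD8 T cells, keep granzymes and perforin in secretory granules. On contact with a target cell the granules are released, perforin opens the target's membrane, and the granzymes enter and cleave proteins inside it. Serpins of the ovalbumin clade act inside the cytoplasm as suicide substrates that trap proteases, and they protect the killer cell and its neighbours from granzymes that leak there. NK cells pass through a CD27-high stage to a stage with high CD11b, the product of Itgam, and the later stage is known for its higher granule content.

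The members lie in small groups of neighbouring genes. In the GENCODE annotation of GRCm38 (mm10), Gzma (chr13:113093825-113100981) and Gzmk (chr13:113171608-113225908) are both on the minus strand, 70.6 kb apart. Gzmb (chr14:56258838-56262260) and Gzmc (chr14:56231441-56234656) are on the minus strand, 24.2 kb apart. Serpinb9 (chr13:33003250-33017957) and Serpinb6b (chr13:32965209-32979067) are on the plus strand, also 24.2 kb apart. No protein-coding gene starts between the genes of any of these pairs. Prf1 (chr10:61297833-61304680) and Nkg7 (chr7:43437073-43438249) stand alone on the plus strand. Gzmk overlaps Esm1 on the opposite strand. Reads may also be shared between near copies, since the last 500 bases of Gzmc are 82.4% identical to Gzmb and those of Serpinb6b are 92.7% identical to Serpinb6c over 234 bases, so counts of Gzmc and Serpinb6b are uncertain to that extent.

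The 250 bases before the RefSeq transcript start are shown for 5 members. Gzma and Prf1 had levels that differed together between NK-like clusters below, as did those of Gzmb and Nkg7. Gzmb and Gzmc are neighbours with different cell patterns, and Serpinb9 was found outside lymphocytes too. Capitals mark AGGTGT or its reverse complement, a core of the site bound by T-box factors such as T-bet and Eomes, and TGTGGT or its reverse complement, a core of the site bound by RUNX factors. Sequences are from RefSeq on GRCm38.p6, 5′ to 3′ on the gene's own strand.
Gzma (chr13:113100982-113101231, minus strand): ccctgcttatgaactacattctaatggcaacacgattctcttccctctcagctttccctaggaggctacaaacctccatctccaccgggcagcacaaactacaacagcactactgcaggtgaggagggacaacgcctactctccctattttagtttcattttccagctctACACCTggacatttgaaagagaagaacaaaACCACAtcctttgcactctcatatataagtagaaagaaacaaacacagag
Prf1 (chr10:61297586-61297835, plus strand): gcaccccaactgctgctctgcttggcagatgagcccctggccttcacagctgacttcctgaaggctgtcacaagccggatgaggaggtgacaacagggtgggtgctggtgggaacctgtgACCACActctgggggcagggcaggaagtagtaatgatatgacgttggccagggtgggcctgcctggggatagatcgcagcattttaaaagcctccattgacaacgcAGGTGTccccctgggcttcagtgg
Gzmb (chr14:56262335-56262584, minus strand): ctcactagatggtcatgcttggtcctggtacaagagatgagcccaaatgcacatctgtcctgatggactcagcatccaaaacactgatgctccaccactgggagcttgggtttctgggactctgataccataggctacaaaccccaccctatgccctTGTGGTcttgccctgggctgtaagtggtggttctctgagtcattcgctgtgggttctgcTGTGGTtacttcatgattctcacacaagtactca
Gzmc (chr14:56234658-56234907, minus strand): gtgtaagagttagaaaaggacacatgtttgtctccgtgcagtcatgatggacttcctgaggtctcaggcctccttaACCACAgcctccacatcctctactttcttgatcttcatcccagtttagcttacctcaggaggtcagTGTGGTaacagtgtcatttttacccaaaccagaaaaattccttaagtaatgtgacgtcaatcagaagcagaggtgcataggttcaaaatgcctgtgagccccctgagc
Serpinb9 (chr13:33004291-33004540, plus strand): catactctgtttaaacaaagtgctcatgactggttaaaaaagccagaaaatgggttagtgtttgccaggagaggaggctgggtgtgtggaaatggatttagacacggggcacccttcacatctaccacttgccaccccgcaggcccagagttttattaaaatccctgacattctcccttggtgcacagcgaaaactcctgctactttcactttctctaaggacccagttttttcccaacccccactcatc
Both strands were searched, and the motifs share no position in these windows. AGGTGT was found in 11.83% of 32851 mouse promoters of this length, TGTGGT in 14.05% and both in 2.128%. Gzma, Prf1 and Nkg7, 3 of the 8 members, held both. Gzma had the T-box core 80 bases before the start and the RUNX core 50 bases before it, and Prf1 had them at 24 and 130 bases. Gzmb held the RUNX core at 93 and 34 bases and Gzmc at 174 and 108 bases, with no T-box core in either, while Gzmk held 2 T-box cores. Neither string was in the windows of Serpinb9 and Serpinb6b. The windows of Serpinb9 and Gzmk lie wholly inside the GENCODE spans given above, so they are not upstream of those annotated gene starts. These matches are descriptions of letters, not of bound sites.

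After cells with fewer than 500 genes or over 15% mitochondrial UMIs were left out, 28588 of 32472 barcodes remained, 2279 to 10366 per library, with a median of 4363 to 12987 UMIs per cell. The 8 members held 121455 UMIs, 401.6 of every 1000000 UMIs. Predicted doublets, 1754 cells, were left out of all classes but not of the sums over all cells. Between 3 and 22 cell barcodes were shared by any pair of libraries. Frmd3 itself had 2.12, 3.06 and 1.88 CPM (UMIs of the gene per 1000000 UMIs) in KO1, KO2 and KO3, against 1.45 and 2.33 CPM in WT1 and WT2. It was therefore not lower under the KO label, but a count at the 3′ end does not show whether an exon elsewhere is missing, so it does not check the labels, and KO and WT below are the labels. KO1 differed from the other libraries in that 3680 of its cells, 38.9% of those classed, formed a cluster of their own that stayed unnamed (led by Retnla, Wfdc17, Lyve1 and C1qa); those cells are in the sums over all cells and in no named class.

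Pooled over libraries, NK-like cells held most UMIs of 5 members, with WT2 giving 680 of the 1160 cells. Over all classed cells, 83.2% of Prf1 UMIs, 73.1% of Gzma, 69.6% of Nkg7, 64.4% of Serpinb6b and 56.9% of Gzmb UMIs lay in NK-like cells, which were 1160 of 26834 cells. Within single libraries Prf1 kept 55.5% to 90.2% of its UMIs there, but Gzmb had 30.5%, 56.9% and 37.2% in KO1, KO2 and KO3 and 31.3% and 67.7% in WT1 and WT2. Gzma had 46.8% there in WT1, and more than that in each other library. Serpinb9 was more evenly spread, with 46.5% in NK-like and 21.9% in fibroblast-like cells. Gzmk and Gzmc went elsewhere: 49.0% of Gzmk UMIs lay in T-like cells, and 85.1% of Gzmc UMIs in lymphoid clusters that could not be named. The share of Serpinb9 UMIs from NK-like cells also ranged widely between libraries of one label, with 13.5%, 46.7% and 23.3% in KO1, KO2 and KO3 and 27.5% and 65.6% in WT1 and WT2. None of the 8 shares differed between labels (exact permutation test, two-sided, raw p of 0.4 to 1; Benjamini-Hochberg adjusted over the 8, all 1), and 3 libraries against 2 cannot give a p below 0.1.

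**Figure D1:**
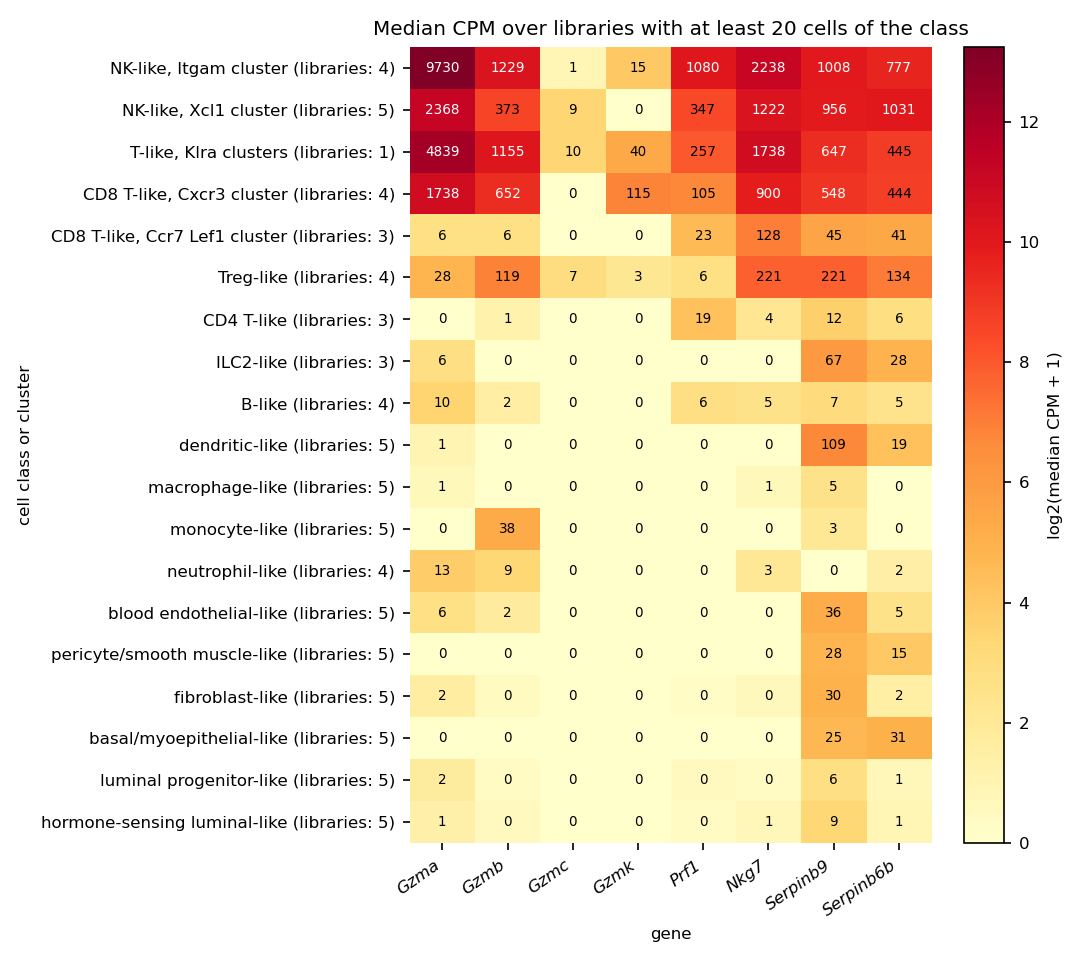
Level of each of the 8 genes (log2 of CPM + 1, colour scale) in each cell class, as the median over libraries with at least 20 cells of that class, with the number of such libraries beside the class name. Gzma, Gzmb and Nkg7 are high in both NK-like clusters, the T-like clusters led by Klra genes and the CD8 T-like cluster with Cxcr3. Prf1 is high in both NK-like clusters, and in WT1 has 167 CPM in the larger Klra cluster and 518 CPM in the smaller. In CD8 T-like cells as a whole Prf1 has 11.2 to 95.6 CPM over libraries. Serpinb9 extends to dendritic, endothelial and stromal classes. The Klra clusters had at least 20 cells in WT1 alone.

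NK-like cells came to 60 in KO1, 209 in KO2, 65 in KO3, 146 in WT1 and 680 in WT2. Those counts were 0.635%, 4.71% and 2.93% of classed cells in the KO libraries and 3.02% and 11.5% in the WT libraries, and the ranges overlapped. The name rested on NK receptors and Eomes: Eomes was detected in 60.9% of these cells, Klrb1c (NK1.1) in 56.9% and Ncr1 (NKp46) in 27.7%, while the T cell gene Cd3e was found in 1.38%. The fibroblast gene Dcn was found in 31.6%, so RNA from other cells is present in these droplets. Over NK-like cells the fibroblast marker list summed to 325, 800 and 132 CPM in KO1, KO2 and KO3 and 221 and 813 CPM in WT1 and WT2, and 5 or 6 of its 6 genes were detected in every library; its part in the results below was not tested.

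The trypsin-like granzyme gene Gzma had 5091, 7258 and 2992 CPM in NK-like cells of KO1, KO2 and KO3, against 4753 and 7421 CPM in WT1 and WT2. Means were 5114 ± 2133 CPM in KO (SD, n = 3) and 6087 ± 1887 CPM in WT (SD, n = 2), and the libraries of the labels interleaved, with KO3 lowest and WT2 highest. Gzmb, whose product cleaves after aspartate and activates caspases, had 538, 1155 and 281 CPM in the KO libraries and 699 and 950.4 CPM in the WT libraries. KO2 was above and KO3 below both WT libraries. Prf1 had 707, 740.2 and 451 CPM in KO and 688 and 791 CPM in WT, again with KO3 lowest. Nkg7, which is needed for granule release, had 1596, 2164 and 1531 CPM in KO and 1561 and 1785 CPM in WT, so that KO2 and KO3 enclosed both WT values. Gzmc and Gzmk were near the limit of detection, at 0 to 20.8 CPM in KO and 5.93 to 13.8 CPM in WT, and were too low to be tested.

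The serpins behaved differently from each other. Serpinb9, the mouse inhibitor of granzyme B, had 832, 957 and 871 CPM in NK-like cells of KO1, KO2 and KO3, against 1018 and 1217 CPM in WT1 and WT2. All 3 KO libraries lay below both WT libraries, with means of 887 ± 63.6 CPM (SD, n = 3) and 1118 ± 141 CPM (SD, n = 2). Serpinb6b, whose product is reported to inhibit granzyme A in the mouse, had 598, 1089.5 and 1149 CPM in KO and 718 and 989 CPM in WT, with overlap. Serpinb9 was the only one of 6 tested members whose labels did not overlap. Of all genes tested, 8.86% had KO libraries wholly below WT, and 15.1% had no overlap counting either direction.

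No member was called in NK-like cells. In edgeR's quasi-likelihood test on UMIs summed per library, KO over WT, the log2 fold change was −0.22 ± 0.32 (SE) for Gzma, −0.28 ± 0.56 for Gzmb, −0.18 ± 0.23 for Prf1, 0.12 ± 0.22 for Nkg7, −0.29 ± 0.21 for Serpinb9 and 0.20 ± 0.29 for Serpinb6b. Benjamini-Hochberg adjusted p was 0.9997 for each. The smallest unadjusted p of the 6 was 0.193, for Serpinb9. Of 6467 genes tested, 0% were called, 105 (1.62%) had an unadjusted p under 0.05 and DESeq2 called 0 (48 unadjusted). The median over the 6 tested members was −0.20 against 0.0009 over all genes. In simulated counts of this design the test recovered 93.7% of 4-fold and 43.0% of 2-fold changes in NK-like cells, so 2-fold changes could have been missed.

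The share of NK-like cells with a UMI was compared at equal depth. Each cell was thinned to 1500 UMIs, which left out 0, 8 and 1 shallower cells in KO1, KO2 and KO3 and 6 and 11 in WT1 and WT2. In the thinned KO libraries, in the same order, Gzma was detected in 71.7%, 87.1% and 71.9% of NK-like cells, and in the WT libraries in 70.0% and 92.2%. Serpinb9 was detected in 60.0%, 71.1% and 64.1% of cells in KO, below 71.4% and 78.0% in WT. Every KO share of Serpinb9 was lower than both WT shares, by 9.66 percentage points on average (exact permutation test, two-sided, p = 0.2; adjusted over the 8 members 0.9, smallest possible p 0.1). KO2 and WT1 were nearly level, and the labels overlapped under each other setting run: at 1000 UMIs KO3 had 60.9% and WT1 55.2%, without thinning KO2 and KO3 had 92.3% and 93.8% and WT1 88.4%, and with NK-like cells gated by markers KO3 had 75.5% and WT1 73.6%. In fibroblast-like cells thinned in the same way, which should not express granzymes, Gzma was detected in 0.0370%, 0.0769% and 0% of cells in KO and in 0.517% and 0.600% in WT. The shares of Gzma in NK-like cells were thus far above those in fibroblast-like cells. Fibroblast-like cells do not set a level for other droplets: in the unnamed KO1 cluster, unthinned, Gzma was found in 13.6% of cells. Without thinning, at a median of 4163 to 5333 UMIs per NK-like cell, Gzma was found in 78.3%, 89.95% and 73.8% of cells in KO and 73.3% and 94.9% in WT, and in fibroblast-like cells, at medians of 9750 to 16693 UMIs, in 0.294% to 1.96% in KO and 2.42% and 8.19% in WT.

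**Figure D2:**
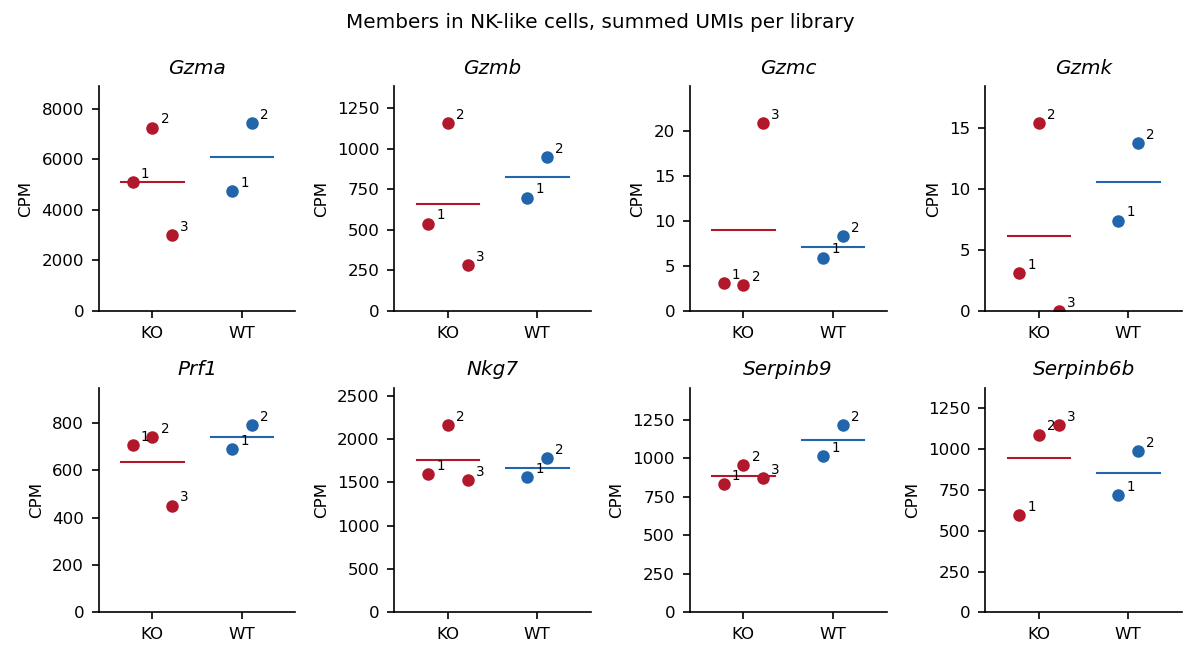
CPM of each of the 8 genes in NK-like cells, 1 point per library, with KO libraries on the left and WT on the right of each panel, the library number beside each point and a horizontal line at each label's mean (n = 3 and 2). Of the 6 genes that were tested, Serpinb9 has 832 to 957 CPM in KO and 1018 to 1217 CPM in WT without overlap, and the other 5 overlap.

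Members were also often detected together. At 1500 UMIs per cell, all of Gzma, Gzmb, Prf1 and Nkg7 were found in 25%, 38.3% and 20.3% of NK-like cells of KO1, KO2 and KO3 and in 27.9% and 39.9% of those of WT1 and WT2. None of the 4 was found in 5%, 2.49% and 9.38% in KO and in 9.29% and 1.94% in WT. Among NK-like cells with Gzmb, a transcript of at least 1 of the serpins was found in 88.9%, 86.5% and 94.4% in KO and in 87.7% and 91.4% in WT. Cells with Gzmb numbered 27, 141 and 18 in KO and 65 and 421 in WT. Without Gzmb, Serpinb9 was detected in 60.6%, 81.7% and 60.9% of cells in KO and 69.3% and 74.2% in WT. With Gzmb, it was detected in 59.3%, 66.7% and 72.2% in KO and 73.8% and 80.3% in WT. The share of Serpinb9 was thus lower with Gzmb in KO1 and KO2 and higher in KO3, WT1 and WT2. Prf1, in contrast, was detected in 74.1%, 63.8% and 77.8% of cells with Gzmb in KO and in 54.5%, 45.0% and 28.3% of those without it. In WT the shares of Prf1 were 73.8% and 68.7% with Gzmb and 34.7% and 48.8% without it. The higher share in cells with Gzmb was seen in all 5 libraries.

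NK-like cells fell into a pair of clusters, found with the 8 members kept out of the variable genes. One was led by Itgam and Cma1 and the other by Xcl1, which encodes a chemokine for dendritic cells. Itgam was detected in 63.7% of cells of the Itgam cluster and 25.1% of the Xcl1 cluster, and Cd27 in 16.1% and 71.9%. The Itgam cluster held 43.3%, 68.9% and 16.9% of NK-like cells in KO1, KO2 and KO3 and 42.5% and 72.1% in WT1 and WT2, only 11 cells of it coming from KO3. Since the clusters were drawn from the expression of these same cells, the values below are a description, with no test.

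All of Gzma, Gzmb, Prf1 and Nkg7 were higher in the Itgam cluster than in the Xcl1 cluster in each of the 5 libraries. Gzma had 9221, 10092 and 9502 CPM in the Itgam cluster of KO1, KO2 and KO3 and 9866 and 9593 CPM in that of WT1 and WT2. In the Xcl1 cluster it had 2368, 2547 and 1939 CPM in KO and 1786 and 3467 CPM in WT. Within a cluster the libraries of both labels were therefore closer to each other than the clusters were. Prf1 had 1118, 943 and 1097 CPM in KO and 1366 and 1042 CPM in WT in the Itgam cluster. In the Xcl1 cluster it had 436, 402 and 347 CPM in KO and 295 and 335 CPM in WT. Gzmb followed with 984, 1404 and 599 CPM in KO and 1260.5 and 1198 CPM in WT in the Itgam cluster, against 244, 741 and 229.8 CPM in KO and 373 and 499.6 CPM in WT in the Xcl1 cluster. Nkg7 ranged from 2093 to 2730.0 CPM over libraries in the Itgam cluster and from 1113 to 1383 CPM in the Xcl1 cluster.

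The serpins did not follow the granule genes. Serpinb9 had 803, 893 and 973 CPM in the Itgam cluster of the KO libraries and 1123 and 1187 CPM in that of the WT libraries, and 852, 1063 and 855 CPM in KO and 956 and 1273 CPM in WT in the Xcl1 cluster. The value of KO3 in the Itgam cluster rests on 11 cells, and in the Xcl1 cluster KO2 was above WT1. Serpinb6b had 630.0, 923 and 1297 CPM in KO and 622 and 966 CPM in WT in the Itgam cluster, and 576, 1366 and 1125 CPM in KO and 774 and 1031 CPM in WT in the Xcl1 cluster. Neither serpin was higher in one cluster than in the other in all libraries.

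The summed level of the 8 members was highest in KO2 and WT2, where the Itgam cluster was the larger one, and lowest in KO3, where it was smallest. It was 9369, 13382 and 7296 CPM in NK-like cells of KO1, KO2 and KO3 and 9449 and 13176 CPM in WT1 and WT2, a difference of −0.20 in mean log2 CPM (exact permutation test, two-sided, p = 0.7; smallest possible 0.1). Without KO3 that difference was 0.0050. Within the Itgam cluster, without KO3 and its 11 cells, it was 15087 and 17015 CPM in KO and 16346 and 16156 CPM in WT, a difference of −0.02. Within the Xcl1 cluster it was 5598, 7342 and 5903 CPM in KO and 5448 and 7752 CPM in WT, a difference of −0.06.

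**Figure D3:**
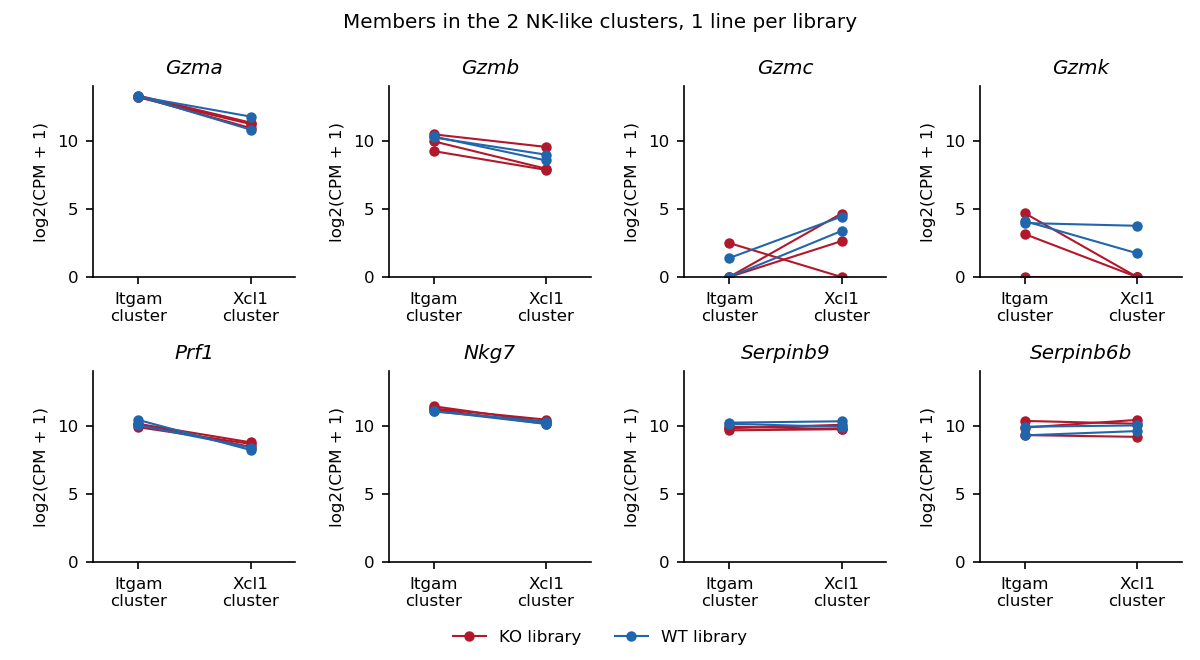
Level of each of the 8 genes as log2(CPM + 1) in the Itgam and Xcl1 clusters of NK-like cells, 1 line per library joining its 2 values. Gzma, Gzmb, Prf1 and Nkg7 are higher in the Itgam cluster in all 5 libraries, while the lines of the serpins run in both directions; the point of KO3 in the Itgam cluster rests on 11 cells.

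Unlike its neighbour Gzmb, Gzmc had few of its UMIs in NK-like cells. A small lymphoid cluster led by Itgae and Itga1, integrin genes of tissue-resident lymphocytes, held 40 cells, with 4, 10 and 7 from KO1, KO2 and KO3 and 17 and 2 from WT1 and WT2. It matched no marker list and stayed unnamed. Gzmc had 492, 2345 and 796 CPM there in KO and 1499 and 5820.0 CPM in WT, where NK-like cells had 2.89 to 20.8 CPM. Gzmb was also high in it, with 6197, 5111 and 1897 CPM in KO and 1539 and 6007 CPM in WT. Prf1 was not, with 131, 108 and 164 CPM in KO and 50.6 and 261 CPM in WT, below its level in either NK-like cluster in each library.

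T-like cells came to 354 in KO1, 79 in KO2, 60 in KO3, 256 in WT1 and 294 in WT2, and their makeup differed strongly between libraries. In KO1, 156 were CD4 T-like and 140 lay in a CD8 T-like cluster led by Ccr7 and Lef1, genes of naive cells. In WT1, 120 lay in clusters led by Klra receptor genes, of which the other libraries had 0 to 7 cells. Those clusters held much granzyme RNA: the WT1 cells of the larger one had 2813 CPM of Gzma and 1039 CPM of Gzmb, and those of the smaller one 10740.3 and 1491 CPM. The NK marker list summed to 164, 394 and 174 CPM in T-like cells of the KO libraries and to 1231 and 409 CPM in those of the WT libraries, so it was lower in every KO library as well; its part in the results below was not tested.

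In T-like cells as a whole, Gzma had 56.4, 1414 and 915 CPM in KO1, KO2 and KO3 and 2250.4 and 639.9 CPM in WT1 and WT2. Gzmb had 21.3, 416 and 149 CPM in KO and 636 and 347 CPM in WT. For both, KO1 was far below the rest and KO2 was above WT2. Gzmk, a trypsin-like granzyme of memory CD8 T cells, had 3.79, 42.5 and 49.7 CPM in KO and 33.8 and 36.2 CPM in WT. Prf1 had 36.0, 11.2 and 53.8 CPM in KO and 137 and 54.9 CPM in WT. Serpinb9 had 49.7, 219 and 190.4 CPM in KO and 441 and 302 CPM in WT, and Serpinb6b had 47.4, 246 and 228 CPM in KO and 263 and 272 CPM in WT. For these 3, Prf1, Serpinb9 and Serpinb6b, all KO libraries lay below both WT libraries. They were 3 of 7 tested members, beside 11% of all genes tested, or 17.5% counting separation in either direction. KO3 missed WT2 by about 1 CPM for Prf1, and with the TMM scaling of the test Serpinb6b overlapped, at 257.6 CPM in KO2 and 257.5 CPM in WT1. The Klra clusters, nearly absent from the other libraries, held much of the WT1 counts. Of the UMIs in T-like cells of WT1, they held 128 of 162 for Prf1, 323 of 523 for Serpinb9 and 222 of 311 for Serpinb6b. Their part in these separations was not tested.

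No member was called in T-like cells. The log2 fold change, KO over WT, was −1.47 ± 0.54 (SE) for Prf1 (unadjusted p 0.0264), −1.30 ± 0.56 for Serpinb9 (unadjusted p 0.0512), −1.31 ± 1.12 for Gzmb, −0.83 ± 1.26 for Gzma, −0.97 ± 0.66 for Nkg7, −0.65 ± 0.61 for Serpinb6b and −0.49 ± 0.92 for Gzmk. The edgeR adjusted p was 0.9997 for each. Of 7892 genes 0% were called, 327 (4.14%) had an unadjusted p under 0.05, and DESeq2 called 0 (159 unadjusted). The 7 values were all negative, with a median of −0.97 against 0.02 over all genes, of which 48.2% were negative. Without the filter on low counts, edgeR called 55 of 15940 genes, Prf1 (log2 −1.50, adjusted p 0.0072) and Serpinb9 (log2 −1.36, adjusted p 0.0132) among them, so their call rests on that filter.

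CD8 T-like cells came to 152 in KO1, 46 in KO2, 30 in KO3, 66 in WT1 and 164 in WT2. Serpinb9 had 64.6, 265 and 209 CPM in them in KO and 453 and 346 CPM in WT, and Gzmb 28.8, 359 and 209 CPM in KO and 402 and 459 CPM in WT. For both, KO lay below WT without overlap, as for 12.6% of the 4350 genes tested. The log2 fold change was −1.16 ± 0.47 for Serpinb9 (unadjusted p 0.0323) and −1.15 ± 0.84 for Gzmb, and no gene passed the edgeR adjusted threshold (156 genes, 3.59%, at unadjusted p under 0.05). Gzma did not go with them, with 100.3, 2097 and 1860.2 CPM in KO and 751 and 783 CPM in WT and a log2 fold change of 0.84 ± 1.03.

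These sums also mixed cells with and without granules. The Ccr7 and Lef1 cluster held 140, 26 and 3 CD8 T-like cells of KO1, KO2 and KO3 and 11 and 55 of WT1 and WT2, and Gzma was at 0 to 5.58 CPM there in KO and 13.9 and 9.40 CPM in WT. The other CD8 T-like cluster, led by Cd8a with Cxcr3 among its leading genes, held 12, 20 and 27 cells in KO and 55 and 109 in WT. Gzma there had 1917, 6338 and 2108 CPM in KO and 952 and 1369 CPM in WT, in a description without a test in which the KO1 value rests on 12 cells. Serpinb9 had 599, 713 and 227 CPM there in KO and 565 and 531 CPM in WT, and no longer separated the labels. Gzmk, with 139.8, 181 and 118 CPM in KO and 53.1 and 112 CPM in WT, was found in 26.0% of the cells of this cluster, against 5.87% of the Itgam cluster of NK-like cells. Treg-like cells held Gzmb at 59.2 and 140.6 CPM in KO1 and KO3 and 186 and 98.1 CPM in WT1 and WT2; KO2 had too few of them to be used.

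**Figure D4:**
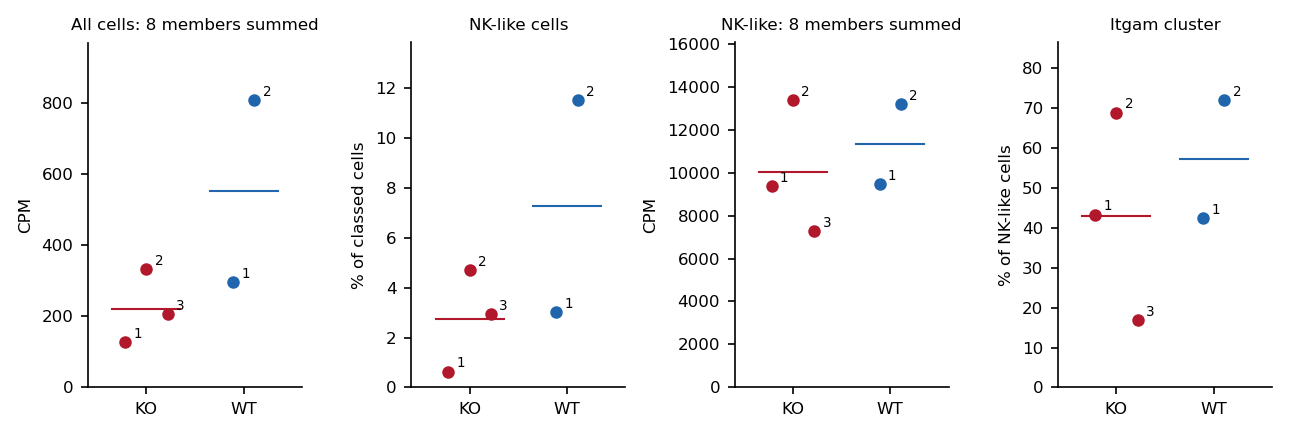
Panels from left to right give the summed CPM of the 8 genes over all cells, NK-like cells as a percentage of classed cells, the summed CPM of the 8 genes in NK-like cells, and the Itgam cluster as a percentage of NK-like cells, with 1 numbered point per library, KO left of WT and a line at each mean. Over all cells the sums are 127 to 333 CPM in KO and 295 and 807 CPM in WT, and in every panel the points of the labels overlap.

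Serpinb9 was the member with the broadest expression. Outside lymphocytes it ranged from 54.6 to 225 CPM over libraries in dendritic-like cells, from 16.9 to 44.2 CPM in fibroblast-like cells, from 22.6 to 30.6 CPM in pericyte-like cells and from 16.3 to 31.1 CPM in basal or myoepithelial-like cells. Luminal progenitor-like cells had 2.44 to 8.10 CPM. Serpinb6b was found in the same myoepithelial class at 14.1 to 34.9 CPM and in pericyte-like cells at 9.43 to 22.0 CPM, but at 1.16 to 4.89 CPM in fibroblast-like cells. In fibroblast-like cells thinned to 1500 UMIs, Serpinb9 was detected in 4.67%, 2.77% and 4.62% of cells in KO and 5.49% and 3.00% in WT, where Gzma stayed at or under 0.600%.

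Among the classes where Serpinb9 was tested beside NK-like, T-like and CD8 T-like cells, the labels did not overlap in 2, in opposite directions. Macrophage-like cells had 4.90, 3.75 and 4.15 CPM in KO1, KO2 and KO3, from 10, 2 and 7 UMIs, against 15.7 and 14.1 CPM in WT1 and WT2, from 36 and 21 UMIs. Each KO library was below each WT library there, but this rests on leaving out the unnamed KO1 cluster, among whose leading genes is the macrophage gene C1qa. That cluster had 29.2 CPM of Serpinb9 in KO1, from 308 UMIs, and 53.2 CPM of Gzma. Over all cells of KO1 these levels were 29.96 and 52.5 CPM, while macrophage-like cells of KO1 had 0.49 CPM of Gzma. The part of free RNA in the cluster's Serpinb9 was not tested. Adding the cluster to the macrophage-like cells was an alternative chosen after the data were seen. Serpinb9 then had 25.3, 3.74 and 4.15 CPM in KO and 17.3 and 14.1 CPM in WT. The labels overlapped, with a log2 fold change of −0.34 ± 0.75 (edgeR adjusted p 0.9999). Without the cluster the log2 fold change was −1.76 ± 0.42 (unadjusted p 0.00176, edgeR adjusted p 0.9996). Of the 8778 genes tested there, 7.75% had KO wholly below WT, 0% were called and 3% had an unadjusted p under 0.05. Gzma had 1, 0 and 1 UMIs in the same cells in KO and 9 and 18 in WT. The NK marker list summed to 1.96, 1.87 and 1.78 CPM in the macrophage-like cells of KO, with 8, 9 and 7 of its 10 genes at 0, and to 12.2 and 14.8 CPM in those of WT, with 3 and 0 at 0. The dendritic marker list summed to 2756, 3758 and 1991 CPM in KO and 6261 and 3700 CPM in WT. The part of either in the Serpinb9 difference was not tested.

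Blood endothelial-like cells had 85.7, 102 and 36.2 CPM of Serpinb9 in KO1, KO2 and KO3, from 19, 148 and 54 UMIs, against 21.7 and 22.2 CPM in WT1 and WT2, from 9 and 8 UMIs. Each KO library was above both WT libraries, KO3 least so. The log2 fold change was 1.75 ± 0.57 (unadjusted p 0.0203, edgeR adjusted p 0.9999), where 5.69% of the 5673 genes tested had KO wholly above WT, 0% were called and 0.952% had an unadjusted p under 0.05. These sums rest on 23, 126 and 168 cells in KO and 43 and 29 in WT. The NK marker list summed to 0, 5.52 and 0 CPM in them in KO and to 48.2 and 13.9 CPM in WT, opposite to Serpinb9. The lymphatic endothelial list summed to 843, 140 and 204 CPM in KO, with all 5 of its genes detected, and to 118 and 44.5 CPM in WT, with 2 and 1 of them at 0, so it was higher in every KO library, as Serpinb9 was. Its part in the Serpinb9 difference was not tested. Serpinb6b had 67.6, 21.4 and 3.35 CPM in these cells in KO and 4.82 and 2.78 CPM in WT, with overlap, and was too low to be tested. In monocyte-like cells Serpinb9 was too low to be tested, with 1, 1 and 0 UMIs in KO and 8 and 27 in WT. The macrophage-like and blood endothelial-like classes were picked out after their values were seen. In the 13 classes fitted beside all cells, NK-like and T-like cells, members gave 32 tests in 11 classes. None passed the edgeR adjusted threshold or was called by DESeq2, and 3, all of Serpinb9, had an unadjusted p under 0.05. In 4 of the 32 the labels did not overlap, 3 lower in KO and 1 higher. Over all genes, by class, 8.53% to 33.8% had no overlap in either direction, and 0.64% to 5.87% had an unadjusted edgeR p under 0.05. The share of all genes called by edgeR was 0% in these classes except Treg-like cells, at 0.029%.

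**Figure D5:**
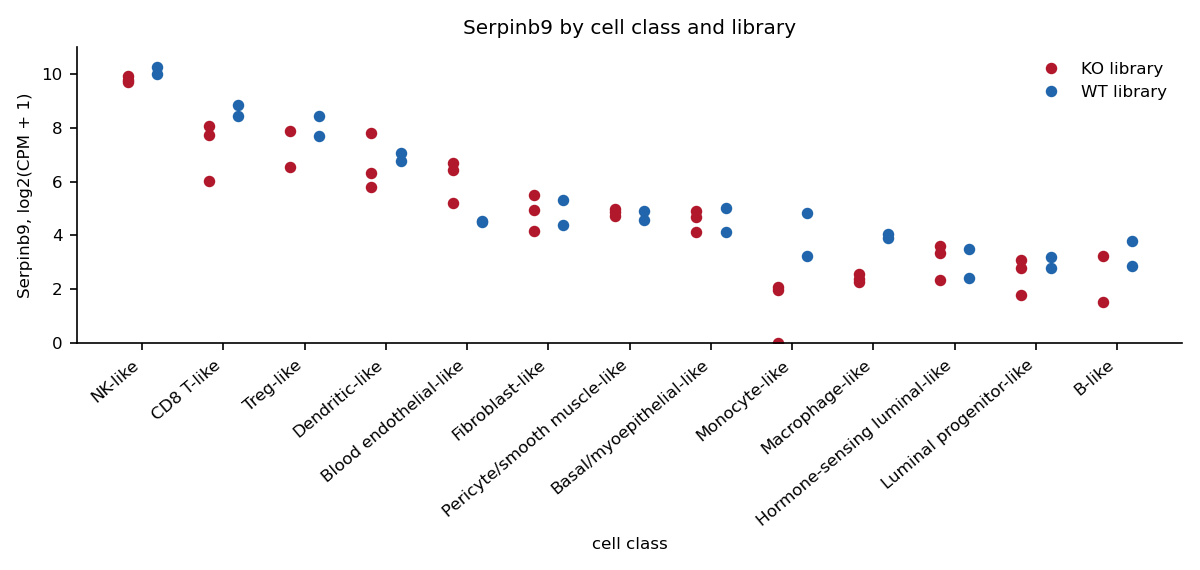
Level of Serpinb9 as log2(CPM + 1) in 13 cell classes, 1 point per library with at least 20 cells of the class, KO left of WT within a class. NK-like cells are highest, the KO points lie below WT in macrophage-like cells, drawn without the unnamed KO1 cluster, at 3.75 to 4.90 CPM against 14.1 and 15.7 CPM in WT, and above WT in blood endothelial-like cells at 36.2 to 102 CPM against 21.7 and 22.2 CPM in WT.

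Summed over all cells of a library, the 8 members together had 127, 333 and 205 CPM in KO1, KO2 and KO3 and 295 and 807 CPM in WT1 and WT2 (difference of −1.25 in mean log2 CPM; exact permutation test, two-sided, p = 0.3). WT2 stood highest and KO1 lowest, and KO2 was above WT1. In such sums, fewer cytotoxic cells and less RNA per cell cannot be told apart, and NK-like cells were 0.635% to 4.71% of classed cells in KO and 3.02% and 11.5% in WT. Prf1 had 6.22, 13.7 and 7.24 CPM in KO and 13.3 and 42.4 CPM in WT. Its log2 fold change of −1.62 ± 0.60 was the most negative of the 8 (unadjusted p 0.0368). Serpinb9 had 29.96, 34.2 and 48.9 CPM in KO and 48.9 and 87.6 CPM in WT, with KO3 and WT1 all but equal (log2 −0.88 ± 0.32, unadjusted p 0.0355). Nkg7 had 17.1, 45.9 and 33.5 CPM in KO and 48.7 and 109 CPM in WT. Nkg7 and Serpinb9 were the 2 of 8 members whose labels did not overlap. Of all genes, 4.09% were wholly lower in KO, and 7.85% had no overlap counting either direction. With the TMM scaling of the test Nkg7 overlapped, at 48.7 CPM in KO2 and 48.4 CPM in WT1. All 8 fold changes were negative, with a median of −1.19 against 0.02 over 17455 genes, but several members share their main cell type, so they are not 8 separate observations. None passed the edgeR threshold (adjusted p 0.9999; 0% of genes called, 200 or 1.15% at unadjusted p under 0.05), and DESeq2 called 8 genes, none a member.

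Other genes of the killing machinery gave no called change either. Of a list of 40, covering further granzymes, cathepsins that process them, release factors, death ligands, transcription factors and caspase targets, 28 were tested in NK-like cells and 0 were called, 11 being positive and 17 negative (median log2 −0.06). The smallest p there belonged to Tbx21, the gene of the T-box factor T-bet, with 103, 105 and 104 CPM in KO1, KO2 and KO3 and 191 and 121 CPM in WT1 and WT2 (log2 −0.51 ± 0.26, unadjusted p 0.0616). Each KO library was below both WT libraries, as for 5 of the 28 list genes, with 2 wholly higher. Of all genes tested, 8.86% were wholly lower in KO and 6.26% wholly higher. Inside each NK-like cluster the labels overlapped for Tbx21. In the Itgam cluster KO1 had 134 CPM and WT2 126 CPM. In the Xcl1 cluster KO2 had 118 CPM and WT2 112 CPM, while WT1 had 209 CPM. Next came Ctsc, whose protease activates granzymes (−0.51 ± 0.29), Stxbp2, a vesicle fusion factor (−0.68 ± 0.40), and Parp1, a DNA repair enzyme that caspases cleave (0.58 ± 0.35).

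In T-like cells 32 of the 40 were tested and 0 were called, 25 being negative (median log2 −0.36 against 0.02 over all genes). Fasl, the Fas ligand gene, had 31.7, 76.0 and 78.6 CPM in KO and 201 and 109.9 CPM in WT (log2 −1.38 ± 0.40, unadjusted p 0.00675). Tbx21 had 4.74, 20.1 and 29.0 CPM in KO and 128 and 35.1 CPM in WT (log2 −2.61 ± 0.83). Ctsw, a cathepsin of cytotoxic cells, and Il2rb, a receptor chain for interleukins 2 and 15, had log2 fold changes of −1.02 ± 0.38 and −0.96 ± 0.36. WT1 was highest for all 4, the library that held the Klra clusters. Over all cells 35 were tested, 0 were called and 10 had an unadjusted p under 0.05, beside 1.15% of all genes. As for the members, sums over all cells cannot tell fewer cytotoxic cells from less RNA per cell.

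Each member was also matched with the genes whose levels varied most like its own. Over 79 sums of at least 20 cells, by class and library, across 20 classes, log2(CPM + 1) of Prf1 correlated most with that of Eomes (Pearson r 0.937), then with Klra9 (0.880) and Klrc1 (0.877). Nkg7 was most like Ifng (0.910), Ctsw (0.906) and Klrc2 (0.901), and Gzma most like Klrc2 (0.865), Klre1 (0.846) and Gm14029 (0.839). Gzmb was most like Klrc1, Klrc2 and Tbx21 (0.833 or 0.834 each), and Gzmk most like Cd8a (0.822), Klrc1 (0.819) and Ifng (0.818). Gzmc reached only 0.673 with Klrb1f, followed by Ifng and Xcl1. The lymphoid clusters that could not be named, where most Gzmc UMIs lay, were not among these sums. The values of Gzmc therefore leave out its main source. Serpinb9 was most like Tnfrsf9 (0.772), the gene of the co-stimulatory receptor 4-1BB, then Gm33104 and A930006K02Rik, and Serpinb6b most like Sla2 (0.811), Ctsw and Tbx21. Among the members themselves the serpins had an r of 0.853 with each other, above their values with any granule gene, of which the highest was 0.775 for Serpinb6b with Nkg7. These correlations describe the sums, which share libraries, depth and free RNA.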

How the data were processed

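The deposited UMI counts per gene and cell barcode were used unaltered, 1 table for each of 5 libraries. The authors made them with Cell Ranger, version 6.1.2 for KO3 and 6.0.2 for the other libraries, as the file headers record; the genome build is mm10, per the submitters' processing notes, and the annotation release is not given in the sources used here. The labels' protocols give 3′ libraries read on a NovaSeq, and the total UMIs were 74947873, 66053067 and 24197344 in KO1, KO2 and KO3 and 55783468 and 87577099 in WT1 and WT2.

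Cells were kept from 500 detected genes upward and up to 15% mitochondrial UMIs. Doublets were scored against simulated doublets, 2 per cell, and the top 0.8% per 1000 barcodes were removed from the classes. Cells were clustered with scanpy 1.11.5 (2000 variable genes without the members, 30 components, Leiden resolution 1; lymphoid cells again with 20 components), giving 37 clusters and 13 lymphoid ones, named "-like" from marker lists with at least 3 detected markers. UMIs were summed per library and class and given as CPM, that is per 1000000 UMIs of that class. Sums of at least 20 cells, in classes with 2 or more such libraries of each label, were tested KO over WT with edgeR 4.0.16 (filterByExpr, TMM, robust quasi-likelihood fit), Benjamini-Hochberg adjusted over all genes at 0.05; SE is the fold change over the square root of F. Single values were tested by exact permutation over the 10 splits. Shares of cells were taken after thinning to 1500 UMIs. Intervals cover counting error only, and were not used for comparisons between labels. The test was checked on simulated counts: 4-fold changes were recovered at 93.7% in NK-like cells, 75.3% in T-like cells and 65.0% in all cells, and 2-fold changes at 43.0%, 13.0% and 3.67%. Genes simulated without a change were also called, on average 10.3 per run in NK-like cells, 9 in T-like cells and 12.3 in all cells.

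The series text names 5 mice for 5 libraries; if libraries were not separate mice, p-values would cover technical spread only. The members, marker lists and the list of 40 further genes were chosen with earlier results of these data known. Genes are named by rule: all members, the 4 list genes with the smallest p in NK-like and in T-like cells, and the 3 genes most correlated with each member; others were named after their values were seen. The alternatives tried were DESeq2 1.42.0, no low-count filter, a replicate block, stricter cells (1000 genes, 10% mitochondrial), doublets kept, NK-like and T-like cells gated by markers, other thinning depths and each library left out; a finer lymphoid clustering, and macrophage-like cells with the unnamed KO1 cluster, were added after the data were seen. Positions are from GENCODE, and similarity of the last 500 transcript bases from blastn 2.17.0.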

Additional observations from a re-analysis of the deposited data

Results flagged for a closer look

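Serpinb9 was lower in macrophage-like cells and higher in blood endothelial-like cells of the KO libraries. The difference between the classes, endothelial minus macrophage on log2(CPM + 1), was 3.88, 4.44 and 2.85 in KO1, KO2 and KO3 and 0.44 and 0.62 in WT1 and WT2. Its mean was 3.19 higher in KO, at 3.72 against 0.53 in WT. The difference was not tested, because the pair of classes was chosen for opposite separations of the labels. The unnamed KO1 cluster had 29.2 CPM of Serpinb9, and 53.2 CPM of Gzma against 0.49 CPM in macrophage-like cells of KO1. The part of free RNA in it was not tested. With that cluster added to the macrophage-like cells, the difference was 1.72, 4.44 and 2.85 in KO and 0.31 and 0.62 in WT. Macrophage-like cells then no longer separated the labels, with KO1 at 25.3 CPM. Otherwise the macrophage-like sums hold 2 to 10 Serpinb9 UMIs per library in KO and 21 and 36 in WT.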

How the results depend on the processing

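Of 429 values recomputed under alternatives, those that kept their direction and side of the threshold were 116 log2 changes and 82 other values with a library left out, and 124 and 56 under the other alternatives. Values tested by permutation could not change side, because their smallest possible p was 0.1 or more under every setting. For those values only the direction could turn. The count of called members was 0 in NK-like cells and in all cells under every alternative run. It became 2 in T-like cells with no filter on low counts (Prf1 −1.50 and Serpinb9 −1.36). It became 1 in the other classes under the replicate block (Gzma, hormone-sensing luminal-like cells), and 0 to 1 with a library left out (Gzmb in neutrophil-like cells without WT1, Gzma in pericyte-like cells without WT2). In both of these WT had 1 library, assumed to vary like the KO ones, and in the neutrophil-like cells of WT2 a single cell held 121 of 122 Gzmb UMIs. Calls over all genes in these class fits, the block fit included, are not given here. The member calls in other classes therefore have no general rate beside them and are not read as a result. Over all genes the calls in NK-like cells were 5 without WT1 and 2 without WT2, and in T-like cells 2 without KO1, 1 without WT1 and 7 without WT2, against 0 with all libraries; none was a member. DESeq2 called 8 genes in all cells, against 0 by edgeR.

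Replicate numbers 1 and 2 are shared by both labels, and the labels do not say that a number marks a shared litter, batch or day. Libraries of the same number had an r of 0.18 and 0.32 in NK-like cells, −0.07 and 0.11 in T-like cells and 0.22 and 0.47 in all cells. With 2 shared numbers these do not decide a pairing, and the numbers are not taken as pairs. The block moved the calls over all genes in NK-like cells to 11 and left them at 0 in T-like cells and in all cells. It turned the NK-like log2 change of Gzma to 0.040 and that of Serpinb6b to −0.035.

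With NK-like and T-like cells gated by markers, signs turned for Gzmb in NK-like cells (log2 0.11) and in T-like cells for Gzma (0.40), Gzmk (0.19) and Serpinb6b (0.072). The difference, KO minus WT, in the share of UMIs from NK-like cells turned to 1.65 percentage points for Gzma and 4.33 for Gzmb, and that in the share of NK-like cells with Nkg7 to −0.65. Thinning to 1000 UMIs turned that of Gzmc to −0.090.

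Most signs that turned when a library was left out did so without WT2 or KO3. Leaving out each library in turn gave log2 changes in NK-like cells of −0.55 to 0.15 for Gzma, −0.97 to 0.057 for Gzmb, −0.043 to 0.23 for Nkg7 and −0.019 to 0.46 for Serpinb6b, in T-like cells of −1.66 to 0.32 for Gzma and −1.24 to 0.40 for Gzmk, and in all cells of −1.60 to 0.11 for Serpinb6b. The summed level in NK-like cells ranged from −0.44 to 0.039. Differences in the share of UMIs from NK-like cells ranged from −20.7 to 14.1 percentage points for Gzma, −26.2 to 10.3 for Gzmb, −5.87 to 4.06 for Gzmc, −18.3 to 4.37 for Gzmk, −13.6 to 7.90 for Prf1, −16.0 to 21.3 for Nkg7, −37.8 to 0.36 for Serpinb9 and −21.8 to 5.68 for Serpinb6b. Those in the share of NK-like cells with a UMI ranged from −15.4 to 6.87 for Gzma, −18.1 to 2.895 for Gzmb, −0.46 to 1.10 for Gzmc, −6.87 to 3.70 for Prf1, −2.14 to 4.53 for Nkg7 and −4.09 to 10.1 for Serpinb6b. The log2 change of Serpinb9 kept its sign with any library left out, at −0.42 to −0.15 in NK-like, −1.77 to −0.82 in T-like, −1.72 to −0.69 in CD8 T-like, −1.26 to −0.38 in all cells, −1.82 to −1.72 in macrophage-like and 1.29 to 2.09 in blood endothelial-like cells. With the unnamed KO1 cluster added, the macrophage-like value was −0.34. With 2 and 3 libraries per label, the NK-like sums could miss changes of 2-fold, and low members such as Gzmc and Gzmk could not be tested there.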

Other observations

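Of 400 Gzmb UMIs in 590 monocyte-like and neutrophil-like cells, 396 lay in 6 cells, 1 from KO1, 1 from KO2 and 4 from WT2, each with 7 to 156 Gzmb UMIs. All 6 had UMIs of Gata2, a transcription factor of mast cells and basophils, and of Cyp11a1, and 5 had Il6. Other genes of mast cells and basophils were less regular: Mcpt8, a basophil protease gene, was at 0 in 3 of the 6 and at 1 or 2 UMIs in 2, with 391 in a single WT2 cell, Cpa3 was at 0 in 2, Cd200r3 in 3 and Ms4a2 in 4, Fcer1a had at most 2 UMIs, and Kit, Mcpt4 and Cma1 were at 0 in all 6. None held a UMI of Prf1, Gzma or Nkg7. These cells were singled out after their values were seen. In contrast, the 33 mast or basophil-like cells of the named class, 28 of them from KO3, held no UMI of any member, at a median of 2751 UMIs, which allows a UMI in up to 10.6% of such cells (upper bound of the 95% Clopper-Pearson interval) and sets no limit on cells that express the genes.

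Gzmb was also found at 1 to 9 UMIs per cell in 70 of 8859 fibroblast-like cells and in 130 of the 3680 cells of the unnamed cluster from KO1. In that cluster Gzma was detected in 13.6% of 3680 cells at a median of 2817 UMIs, where fibroblast-like cells of KO1 had it in 0.294% at a median of 11826 UMIs. Its Gzma level was 53.2 CPM, against 5091 CPM in NK-like cells of KO1.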
